A study of Homo sapiens with 9 samples.

Results

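The levels of 9 genes of insulin and insulin-like growth factor (IGF) signalling were compared in LIM1215-parental cells and in the cetuximab-resistant populations LIM1215-R1 and LIM1215-R2. They were the receptors IGF1R, INSR and IGF2R, the adaptors IRS1 and IRS2, and the binding proteins IGFBP2, IGFBP3, IGFBP4 and IGFBP6. The 9 genes were found by symbol among the 58920 genes of the count tables, and all 9 were among the 19102 genes tested, which had at least 10 counts over the 9 libraries. LIM1215 is an established colorectal cancer cell line. Cetuximab is an antibody that blocks the epidermal growth factor receptor. LIM1215-R1 and LIM1215-R2 were raised side by side from this line under cetuximab that was increased over several months, and each is a mixed population, not a clone. The study reports activating HRAS mutations in a subpopulation of each resistant line, at a different site in each. The part of these mutations in the differences below was not tested. LIM1215-parental cells were kept for the same time without the antibody. RNA was taken from cultures without treatment, with 3 libraries for each line, in a medium that contained fetal bovine serum. The study describes the 3 libraries of a line as technical replicates, so the p-values here measure only how far these libraries scatter. Whether cultures differed in handling cannot be told apart from the line.

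Insulin, IGF1 and IGF2 act on the receptor tyrosine kinases INSR and IGF1R, which recruit the adaptors IRS1 and IRS2 and pass the signal to PI3-kinase and AKT and to the MAPK cascade. IGF2R, the cation-independent mannose 6-phosphate receptor, carries IGF2 to the lysosome and has no kinase. The secreted binding proteins hold IGFs away from the receptors or deliver them there, and proteases such as PAPPA release the ligand. In the intestinal epithelium this system supports growth and survival, and IGF2 is a gene known for high expression in a subset of colorectal tumours.

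Total counts lay between 13737416 and 18725014 per library. Levels are given as counts scaled to library size (CPM) with the TMM scaling of edgeR, whose factors ran from 0.984 to 1.02. A gene with 0 counts in a library could have had up to 0.158 to 0.217 CPM there, which is the level of 3 counts, a limit that covers counting error only. Log2 CPM of libraries of one line had correlations across genes between 0.9895 and 0.9917. Of 11 markers of colorectal epithelium, 10 reached at least 1 CPM in each line, and KRT20, a keratin of differentiated colon cells, was at 0 in all 9 libraries. Their summed level was 13048 to 13432 CPM in parental libraries, 16251 to 16548 CPM in those of LIM1215-R1 and 14860 to 15270 CPM in those of LIM1215-R2, and its part in the results was not tested. Most of this sum was the keratins KRT8, at means of 5717, 7884 and 7170.2 CPM in the 3 lines in this order, and KRT18, at 4131, 5499 and 5008 CPM. VIL1 and GPA33 also had higher means in both resistant lines than in parental cells, and the other 6 markers, EPCAM, CDH1, CDX1, CDX2, CDH17 and LGALS4, had lower means in both, such as 911, 758 and 729 CPM for EPCAM and 413, 305 and 283 CPM for CDX2. The summed level of 6 fibroblast markers, a cell type that makes several binding proteins, stayed between 1.19 and 3.19 CPM. PTPRC and CD3E of the 4 leukocyte markers were at 0 throughout, and the sum of the list, nearly all of it CD68, was 6.85 to 10.1 CPM in parental libraries, 11.7 to 14.2 in LIM1215-R1 and 8.56 to 10.5 in LIM1215-R2. Sums of endothelial and of adipocyte and muscle markers stayed at or below 0.722 and 0.502 CPM. In bulk RNA, fewer cells that express a gene and less RNA per cell cannot be told apart.

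A gene passed when its adjusted p was at most 0.01 in edgeR's quasi-likelihood test, with p-values adjusted by the Benjamini-Hochberg method across the 19102 genes. A differentially expressed gene (DEG) also had a log2 fold change of at least 1.5 in either direction. Against parental cells, 5 of the 9 genes passed in LIM1215-R1, 3 higher (IGFBP2, IGFBP3 and IGFBP6) and 2 lower (IGF1R and INSR), where 27.3% of all genes tested passed, 14.0% higher and 13.4% lower. LIM1215-R2 also had 5, 3 higher (the same binding proteins) and 2 lower (INSR and IGFBP4), where 23.8% of all genes passed, 12.3% higher and 11.6% lower. DEGs were IGFBP3 and IGFBP6 in both lines, joined by IGFBP4 in LIM1215-R2, so 2 and 3 of the 9 genes, where 5.14% and 4.82% of all genes were DEGs. Of all genes, 3.24% were DEGs on the higher and 1.91% on the lower side in LIM1215-R1, and 2.63% and 2.19% in LIM1215-R2. Between the resistant lines 2 genes passed, IGF1R higher and IGFBP3 lower in LIM1215-R2, where 7.16% of all genes passed, 3.39% higher and 3.77% lower. None of the 9 was a DEG there, where 0.764% of all genes were, 0.215% higher and 0.550% lower. Both comparisons with parental cells used the same 3 parental libraries. The median log2 fold change of the 9 genes was -0.17 in LIM1215-R1, 0.04 in LIM1215-R2 and 0.12 between the resistant lines, and the medians over all genes tested were -0.011, -0.0037 and -0.0011. The 3 libraries of one line lay wholly outside those of the other for 7 of the 9 genes when LIM1215-R1 was set against parental cells, for 7 with LIM1215-R2, and for 5 between the resistant lines. The shares over all genes tested were 44.0%, 42.8% and 28.0%. All genes tested include those of few counts, which pass less readily. Shares among genes of a like level were not counted.

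**Figure D1:**
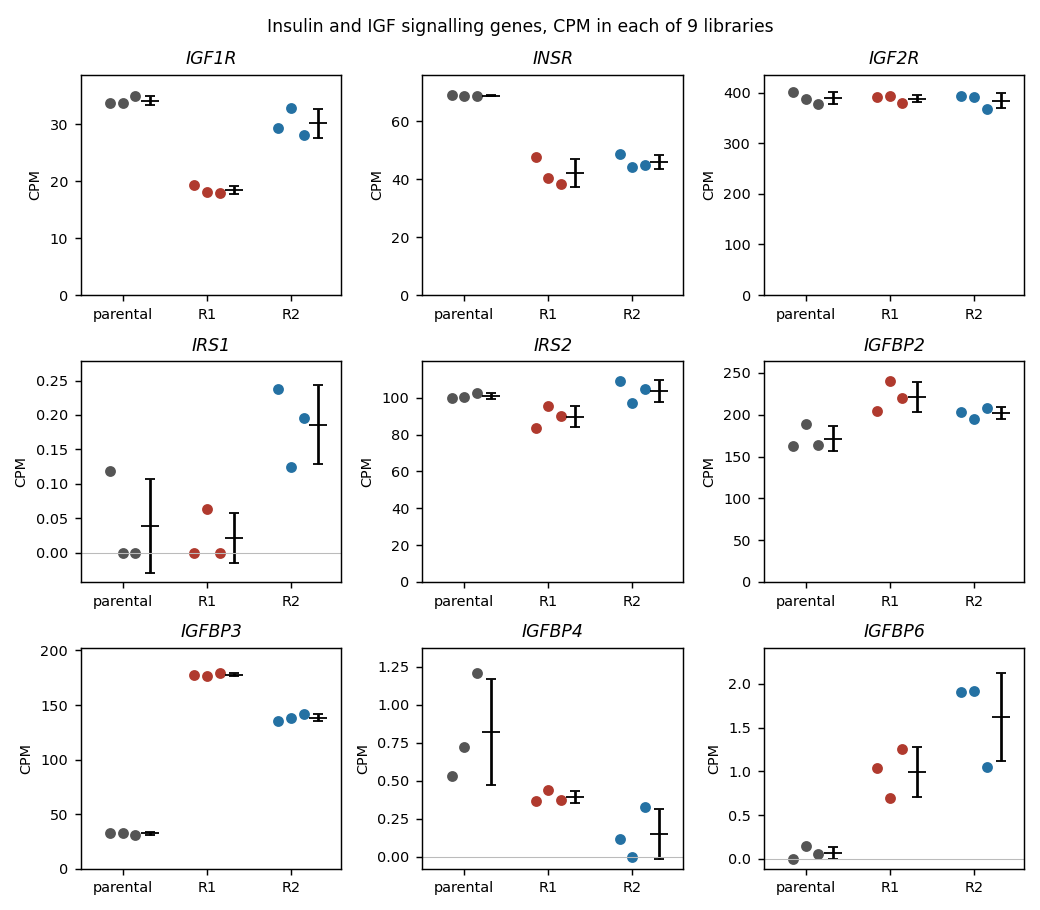
CPM (y axis, linear, own scale in each panel) of the 9 genes in each library of the parental line, LIM1215-R1 and LIM1215-R2 (x axis), with points from left to right for replicates 1 to 3 and a bar for the mean with its SD. IGFBP3 stood at 31.2 to 33.2 CPM in parental libraries and at 135 to 179.6 CPM in all 6 resistant ones, IGF1R was lowest in LIM1215-R1, and IGF2R overlapped in all 3 lines.

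The sequences before the start sites of 4 of these genes are printed. IGFBP3 was chosen as the binding protein with the clearest rise, and IGFBP4 as the only binding protein of the 9 genes to pass as lower, in LIM1215-R2 only. INSR and IGF1R are the receptor kinases that passed as lower, INSR in both resistant lines and IGF1R in LIM1215-R1 only. The sequences are the 250 bases upstream of each start in RefSeq's annotation of GRCh38.p14, written 5′ to 3′ on the gene's strand. RefSeq windows matched all 9 genes. Capitals mark GC boxes (GGGCGG or its complement CCGCCC) and TATA boxes (TATAAA), searched on both strands, and neighbouring GC boxes can share a base.
IGFBP3, chr7:45921273-45921522, minus strand: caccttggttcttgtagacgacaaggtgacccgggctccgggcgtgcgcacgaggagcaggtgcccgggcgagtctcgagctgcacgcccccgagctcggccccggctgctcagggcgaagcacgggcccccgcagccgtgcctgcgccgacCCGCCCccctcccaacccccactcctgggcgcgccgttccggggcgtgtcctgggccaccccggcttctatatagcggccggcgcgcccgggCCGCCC
IGFBP4, chr17:40443200-40443449, plus strand: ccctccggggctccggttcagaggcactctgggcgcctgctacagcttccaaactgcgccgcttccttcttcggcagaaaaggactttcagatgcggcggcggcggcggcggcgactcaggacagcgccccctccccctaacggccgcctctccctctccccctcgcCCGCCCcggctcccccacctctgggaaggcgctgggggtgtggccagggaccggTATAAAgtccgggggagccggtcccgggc
INSR, chr19:7294415-7294664, minus strand: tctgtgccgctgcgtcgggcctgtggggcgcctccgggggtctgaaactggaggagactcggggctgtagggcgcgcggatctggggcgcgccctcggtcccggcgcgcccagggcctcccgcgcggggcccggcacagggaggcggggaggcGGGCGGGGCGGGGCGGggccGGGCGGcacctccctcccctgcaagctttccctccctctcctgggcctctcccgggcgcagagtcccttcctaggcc
IGF1R, chr15:98648289-98648538, plus strand: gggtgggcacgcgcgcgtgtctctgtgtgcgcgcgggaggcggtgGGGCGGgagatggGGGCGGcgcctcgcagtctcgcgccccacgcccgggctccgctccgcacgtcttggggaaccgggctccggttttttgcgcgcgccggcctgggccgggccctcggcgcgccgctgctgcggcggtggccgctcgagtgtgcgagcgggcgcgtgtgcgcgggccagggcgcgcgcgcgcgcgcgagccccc
The windows held 2 GC boxes in IGFBP3, 1 in IGFBP4, 4 in INSR and 2 in IGF1R, and 42.6% of 35116 RefSeq windows of the same length held at least 1. Of the windows of the 9 genes, only that of IGFBP4 held TATAAA, which 10.7% of all windows held. No window of the 9 genes held the AP-1 motif TGANTCA, found in 6.57% of all windows. The FOXO motif GTAAACA, found in 2.98%, was in the window of IGFBP6, not printed here, and in no other of the 9 genes. The GC contents of the 4 printed windows, in the order printed, were 76.0%, 71.6%, 78.4% and 81.2%. These matches describe the letters alone.

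IGF1R, the receptor for IGF1 and IGF2, fell in LIM1215-R1 and did not pass in LIM1215-R2. The gene lies on hg38 chromosome 15 from 98648539 to 98964530. Parental libraries had 33.7, 33.8 and 35.0 CPM, LIM1215-R1 libraries 19.3, 18.2 and 18.0 CPM, and LIM1215-R2 libraries 29.4, 33.0 and 28.2 CPM. LIM1215-R1 lay below every other library, and LIM1215-R2 lay just below the parental range without reaching it. The log2 fold change was -0.88 (SE 0.0795) in LIM1215-R1, 1.85-fold lower, with an adjusted p of 6.43e-10. In LIM1215-R2 it was -0.18 (95% interval -0.34 to -0.027) with an adjusted p of 0.0675. The difference between the resistant lines was itself past the test, at 0.70 (SE 0.0807, adjusted p 4.51e-07).

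INSR, the insulin receptor, was lower in both resistant lines. It is located on chromosome 19 from 7112255 to 7294414. CPM values were 69.0, 68.7 and 68.9 in parental cells, 47.7, 40.5 and 38.4 in LIM1215-R1, and 48.6, 44.2 and 45.0 in LIM1215-R2. The parental libraries differed by less than 1 CPM and were above all 6 resistant ones, whose ranges overlapped each other. The change was -0.71 (SE 0.0698, adjusted p 4.02e-09) in LIM1215-R1 and -0.58 (SE 0.0692, adjusted p 1.07e-07) in LIM1215-R2 on the log2 scale. Between the resistant lines the log2 difference was 0.12 (95% interval -0.026 to 0.27, adjusted p 0.317).

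IGF2R, on chromosome 6 from 159969082 to 160113507, passed in no comparison. Parental libraries had 402, 387 and 378 CPM, those of LIM1215-R1 391, 392 and 379 CPM, and those of LIM1215-R2 394, 391 and 368 CPM. All 3 groups overlapped. Log2 fold changes were -0.0044 (95% interval -0.091 to 0.082, adjusted p 0.959) in LIM1215-R1 and -0.017 (95% interval -0.10 to 0.069, adjusted p 0.814) in LIM1215-R2. Between the resistant lines the difference was -0.013 (95% interval -0.099 to 0.074, adjusted p 0.904).

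Because counts grow with gene length, levels of different genes were set side by side as CPM per kilobase (kb) of exon. INSR stood 2.59 ± 0.0559 (SD, n = 3) times above IGF1R on this scale in parental cells, 2.93 ± 0.223 times in LIM1215-R1 and 1.97 ± 0.215 times in LIM1215-R2. The ranges were 2.53 to 2.64, 2.74 to 3.17 and 1.73 to 2.13, with no overlap among the lines. IGF2R stood 7.02 ± 0.354, 12.9 ± 0.415 and 7.88 ± 0.503 times above IGF1R, and the LIM1215-R1 libraries, with the least IGF1R, had the highest of these ratios. The size of the IGF2R ratios depends on the length used. With the length of the longest transcript, IGF2R had 27.3, 27.2 and 27.0 CPM per kb in these lines. IGF1R then had 2.79, 1.51 and 2.47.

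IRS2 carried nearly all IRS reads in these cells. This adaptor is encoded on chromosome 13 from 109752695 to 109786583. Its CPM values were 100.1, 100.4 and 103 in parental libraries, 83.8, 95.3 and 89.9 in LIM1215-R1, and 109, 97.4 and 105 in LIM1215-R2. LIM1215-R1 lay below the other lines in all 3 libraries, and LIM1215-R2 overlapped the parental libraries. None of its comparisons passed, with log2 differences of -0.17 (adjusted p 0.0187) in LIM1215-R1, 0.039 (adjusted p 0.671) in LIM1215-R2 and 0.21 (adjusted p 0.0132) between the resistant lines. The first and the last of these sat close to the threshold and passed in 4 and 6 of 17 other settings, with adjusted p-values over those settings of 0.000279 to 0.108 and 0.00138 to 0.111.

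IRS1, the other main adaptor, was read at a trace level. It lies on chromosome 2 from 226731312 to 226799820 and had 12 counts in all 9 libraries. Its counts were 2, 0 and 0 in parental libraries, 0, 1 and 0 in LIM1215-R1, and 4, 2 and 3 in LIM1215-R2. Each library of LIM1215-R2 had at least as many as the highest library of the other lines. The ratio of LIM1215-R2 to parental CPM was 4.64 with a 95% counting interval of 0.961 to 44.2, and the ratio to LIM1215-R1 was 8.99 with 1.25 to 394. The adjusted p-values were 0.178 and 0.157, so neither difference passed at this depth. The interval against LIM1215-R1 lay above 1, but it covers counting error only. IRS2 took 99.961%, 99.978% and 99.823% of the reads of both adaptors in parental, LIM1215-R1 and LIM1215-R2 libraries, as means over 3 libraries.

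IGFBP3, the main IGF carrier of blood serum and a known p53 target, rose most among the members with ample counts. It occupies chromosome 7 from 45912245 to 45921874. Parental libraries had 32.9, 33.2 and 31.2 CPM, LIM1215-R1 libraries 177, 177 and 179.6 CPM, and LIM1215-R2 libraries 135, 138 and 142 CPM. The 3 lines formed 3 separate bands with LIM1215-R1 on top. The log2 fold change was 2.46 (SE 0.0544, adjusted p 1.09e-22), or 5.49-fold, in LIM1215-R1 and 2.09 (SE 0.0547, adjusted p 3.09e-21), or 4.27-fold, in LIM1215-R2. LIM1215-R2 was lower than LIM1215-R1 by a log2 difference of -0.36 (SE 0.0479, adjusted p 4.55e-06).

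IGFBP6, a binding protein that prefers IGF2, went from nearly no reads to about 1 CPM or more. It lies on chromosome 12 from 53097436 to 53102345. Its counts were 0, 2 and 1 in parental libraries, 17, 11 and 20 in LIM1215-R1, and 32, 31 and 16 in LIM1215-R2. Every resistant library exceeded every parental one, and the resistant lines overlapped. From 3 parental counts, the ratio was 16.5 (95% counting interval 5.33 to 83.0) in LIM1215-R1 and 27.2 (8.97 to 135) in LIM1215-R2, with adjusted p-values of 1.47e-05 and 2.43e-07. The fitted log2 fold changes of 3.88 and 4.59 were 4.83 and 5.54 without parental replicate 2, which held 2 of the 3 counts. The resistant lines differed by 0.71 on the log2 scale (95% interval 0.020 to 1.40, adjusted p 0.188).

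IGFBP2, the most abundant binding protein of these cells per exon length, was higher by a smaller step. Its position is chromosome 2 from 216632828 to 216664436. CPM values were 162, 188 and 164 in parental cells, 204, 240.1 and 220.0 in LIM1215-R1 and 203, 195 and 208 in LIM1215-R2. All 6 resistant libraries lay above the parental range and overlapped each other. The log2 fold change stood at 0.37 (SE 0.0586, adjusted p 1.07e-05) in LIM1215-R1 and 0.24 (SE 0.0587, adjusted p 0.00216) in LIM1215-R2. The call in LIM1215-R2 was lost when parental replicate 1 (adjusted p 0.0223), parental replicate 3 (0.0218), LIM1215-R2 replicate 1 (0.0125) or LIM1215-R2 replicate 3 (0.0155) was left out.

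IGFBP4, a binding protein cleaved by PAPPA, was lower in LIM1215-R2. It sits on chromosome 17 from 40443450 to 40457725. The counts were 9, 10 and 23 in parental libraries, 6, 7 and 6 in LIM1215-R1, and 2, 0 and 5 in LIM1215-R2. The 3 lines did not overlap, and parental replicate 3 held more counts than the other 2 parental libraries together. The log2 fold change in LIM1215-R2 was -2.46 (SE 0.609, adjusted p 0.00224), or 5.50-fold lower, and in LIM1215-R1 it was -1.07 (SE 0.503, adjusted p 0.103). Without parental replicate 3 the value in LIM1215-R2 was -2.04 with an adjusted p of 0.0335, and the call was also lost without LIM1215-R2 replicate 1 (0.0156) or replicate 2 (0.0179). Over single libraries left out the value ran from -1.90 without LIM1215-R2 replicate 2 to -3.63 without LIM1215-R2 replicate 3.

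**Figure D2:**
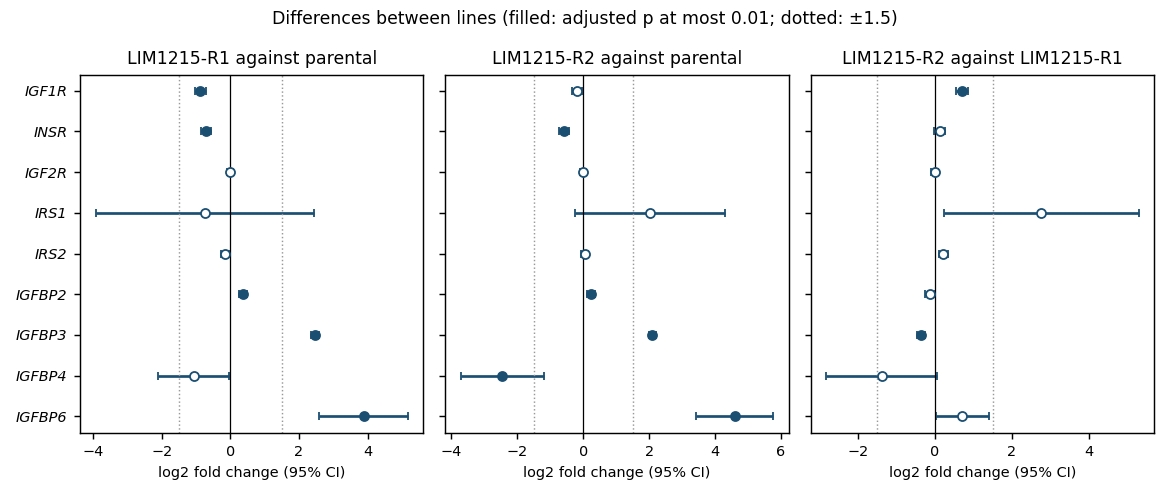
Log2 fold change (x axis) of each of the 9 genes (y axis) in the 3 comparisons, one panel each, with 95% intervals. Filled points passed at 0.01, and dotted lines mark 1.5 in both directions. IGFBP3 and IGFBP6 lay beyond the dotted line in both resistant lines, IGF2R sat at 0 in each panel, and the widest intervals belonged to IRS1, which had 12 counts.

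Per kb of exon, the order of the genes changed between the lines through IGFBP3 and IGFBP6. In LIM1215-parental it ran IGFBP2 (36.2 CPM per kb), IGF2R (17.2), IRS2 (12.4), IGFBP3 (7.10), INSR (6.36), IGF1R (2.45), IGFBP4 (0.372), IGFBP6 (0.0488) and IRS1 (0.0039), and of these neighbours only the last pair overlapped over the 3 libraries. IGFBP3 took the second place in LIM1215-R1 with 38.9 CPM per kb behind IGFBP2 with 46.7, and in LIM1215-R2 with 30.3 behind 42.6. IGFBP6 moved above IGFBP4 in both resistant lines, at 0.739 against 0.179 and 1.21 against 0.0674 CPM per kb. Neighbours in LIM1215-R1 did not overlap, and in LIM1215-R2 the last pair, IGFBP4 and IRS1, did. Lengths came from GENCODE 44 as all exon bases of a gene. With the length of the longest transcript in their place, IGFBP3 stood first and IGFBP2 second in both resistant lines, at 67.6 and 50.2 CPM per kb in LIM1215-R1 and 52.6 and 45.8 in LIM1215-R2.

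**Figure D3:**
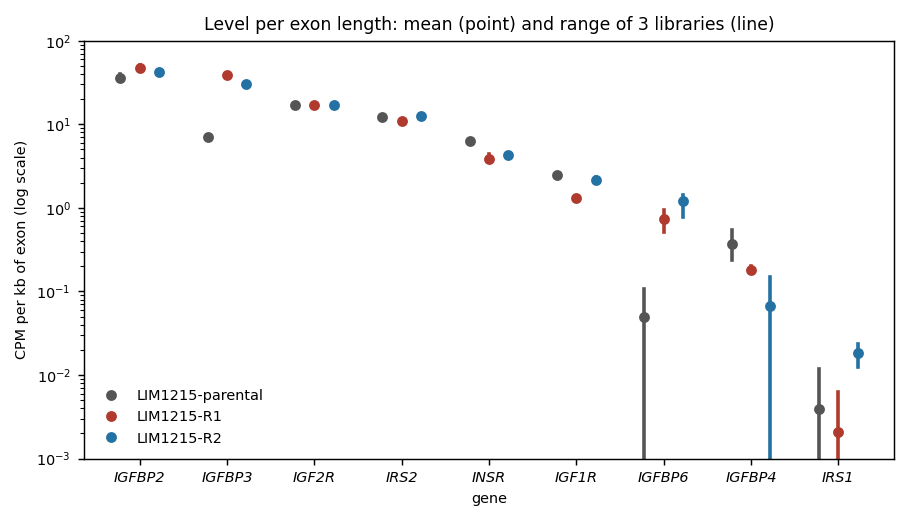
Level of the 9 genes (x axis) as CPM per kb of exon on a log axis (y axis), with a point for the mean of 3 libraries and a line for their range in each line. Lines of IRS1, IGFBP4 and IGFBP6 that reach the bottom of the axis include a library with 0 counts. IGFBP3 rose from 7.10 in parental cells to 38.9 in LIM1215-R1 and 30.3 in LIM1215-R2, next to IGFBP2.

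The summed level of the 6 classical binding proteins, IGFBP1 to IGFBP6, was 43.9 ± 3.28 CPM per kb (SD, n = 3) in parental cells, 88.4 ± 3.65 in the LIM1215-R1 libraries and 76.2 ± 1.28 in those of LIM1215-R2. The lowest resistant library had 75.0 and the highest parental library 47.6 CPM per kb. IGFBP2 made up 82.4 ± 0.842% of this sum in parental cells, and the share was 52.8 ± 2.13% in LIM1215-R1 libraries and 55.9 ± 0.988% in those of LIM1215-R2. The share of IGFBP3 went from 16.2 ± 1.01% to 44.1 ± 1.93% and 39.7 ± 0.751%. These shares rest on the level of IGFBP3 itself, so they add no independent observation. They also depend on the length used. With the length of the longest transcript, IGFBP3 stood above IGFBP2 in both resistant lines. The levels were 67.6 against 50.2 CPM per kb in LIM1215-R1 and 52.6 against 45.8 in LIM1215-R2. In parental cells IGFBP3 stayed below IGFBP2, at 12.3 against 38.9.

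A further 66 genes of the pathway were listed by role, and 49 of them were tested. In LIM1215-R1, 30 of the 49 passed (61.2%), 11 higher and 19 lower, and in LIM1215-R2 25 passed (51.0%), 9 higher and 16 lower. The median log2 fold changes were -0.045 and -0.096. Between the resistant lines 6 of the 49 (12.2%) passed, 3 higher and 3 lower in LIM1215-R2. Of all genes tested, 27.3% passed in LIM1215-R1, 14.0% higher and 13.4% lower, and 23.8% in LIM1215-R2, 12.3% higher and 11.6% lower. Between the resistant lines 7.16% passed, 3.39% higher and 3.77% lower. Here and for each role below, these shares include genes of few counts, which pass less readily. Most of the listed genes had ample counts, and shares at a like level were not counted. Where fewer than 6 genes of a role are counted, those outside the naming rule were named after their values had been seen.

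Of the 6 ligand genes listed, only IGF1 had enough counts to be tested. INS and IGF2 had 0 counts in all 9 libraries, as had INS-IGF2, IGF2-AS and MIR483 of the same locus. The exons of IGF2 share 43.2% of their bases with another gene on the same strand in GENCODE 44, and those of INS share 37.5%. Reads in the shared part may have been set aside as ambiguous, depending on how they were counted. The remaining exon bases of IGF2 and INS are not shared in this way in GENCODE 44. IGF1 had 0, 1 and 0 counts in parental libraries, 12, 9 and 11 in LIM1215-R1, and 8, 10 and 16 in LIM1215-R2. All resistant libraries lay above the parental ones. The ratio to the single parental count was 33.1 (95% counting interval 5.52 to 1346) in LIM1215-R1 and 35.1 (5.89 to 1426) in LIM1215-R2, with adjusted p-values of 6.43e-05 and 4.54e-05, at a mean of 0.663 and 0.713 CPM. Without parental replicate 2 the parental group was at 0 counts.

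Both other binding protein genes that were tested, IGFBP1 and IGFBPL1, rose in both resistant lines. Among all genes tested, 14.0% passed as higher in LIM1215-R1 and 12.3% in LIM1215-R2. IGFBP1, a binding protein best known from liver, had 0.177, 0.361 and 0.315 CPM in parental libraries, 3.13, 3.26 and 2.69 in LIM1215-R1, and 3.69, 3.72 and 2.87 in LIM1215-R2. The resistant lines overlapped and lay above parental cells, with log2 fold changes of 3.39 (SE 0.311, adjusted p 9.32e-10) and 3.57 (SE 0.304, adjusted p 2.14e-10). It lies on chromosome 7 with 18584 bases between it and IGFBP3. IGFBP1 is also 1 of 3 listed hepatocyte markers, whose summed level was 0.295 to 0.578 CPM in parental libraries, 2.75 to 3.39 in LIM1215-R1 and 2.94 to 3.90 in LIM1215-R2. Of the other 2, ALB had means of 0.182, 0.0627 and 0.104 CPM and APOA2 was at 0 in all libraries. IGFBPL1, an IGFBP-related gene, had 0, 1 and 0 counts in parental libraries, 41, 43 and 43 in LIM1215-R1, and 8, 5 and 9 in LIM1215-R2, so each line formed its own range. Its ratio to the single parental count was 131 (95% counting interval 23.1 to 5224, adjusted p 2.10e-10) in LIM1215-R1 and 22.7 (3.67 to 937, adjusted p 2.48e-04) in LIM1215-R2. That count, too, was in parental replicate 2. Between the resistant lines its log2 difference was -2.51 (SE 0.324, adjusted p 3.11e-06). IGFBP5, 7668 bases from IGFBP2 on chromosome 2, had 0 counts in all libraries, and IGFBP7 had 7.

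Of the proteases that act on binding proteins or ligands and their inhibitors, 5 of 7 were tested. HTRA1, a secreted serine protease, had 6, 3 and 9 counts in parental libraries and 0 in all 6 resistant ones. With 3 counts over a group taken as the limit for 0, both resistant lines were 5.81-fold lower. This value takes the parental counts as exact, so it is not a lower bound. The adjusted p-values were 0.00222 for LIM1215-R1 and 0.00248 for LIM1215-R2. The second call was lost without LIM1215-R2 replicate 1 (adjusted p 0.0111) or replicate 2 (0.0109). IDE, which degrades insulin, rose from 132 ± 5.85 CPM to 151 ± 6.92 in LIM1215-R1 (adjusted p 0.00283) and 172 ± 4.76 in LIM1215-R2 (adjusted p 5.87e-07), with log2 fold changes of 0.20 and 0.39. The call in LIM1215-R1 was lost without parental replicate 2 (adjusted p 0.0141) and without LIM1215-R1 replicate 1 (0.0160) or replicate 3 (0.0165). FURIN, a convertase, also rose in LIM1215-R1, with a log2 fold change of 0.23 (adjusted p 0.00584) and libraries that overlapped the parental ones. It did not pass in LIM1215-R2, at a mean of 90.1 CPM against 90.7 in parental cells. PAPPA had 1 count and PAPPA2 9 counts in the 9 libraries together.

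Of 3 receptors tested outside the 9 genes, LRP1 and SORL1 fell in both resistant lines, and TMEM219 passed in neither. Among all genes tested, 13.4% passed as lower in LIM1215-R1 and 11.6% in LIM1215-R2. LRP1, a scavenger receptor that has been described as a receptor for IGFBP3, had 28.1, 33.2 and 29.9 CPM in parental libraries, 15.4, 18.9 and 17.2 in LIM1215-R1, and 11.5, 11.8 and 11.1 in LIM1215-R2. The 3 lines were separate, in the order parental, LIM1215-R1, LIM1215-R2. Log2 fold changes were -0.82 (SE 0.0891, adjusted p 2.21e-08) and -1.40 (SE 0.0943, adjusted p 1.78e-12), and the resistant lines differed by -0.58 (SE 0.101, adjusted p 1.89e-04). IGF2BP2 and IGF2BP3, which bind IGF2 mRNA, fell in both lines as well. IGF2BP3 went from 40.3 ± 1.51 CPM to 23.0 ± 1.87 in LIM1215-R1 (log2 fold change -0.81, adjusted p 2.61e-09) and 20.2 ± 1.35 in LIM1215-R2 (-0.998, adjusted p 5.88e-11).

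Of 11 adaptor and PI3-kinase genes tested beside IRS1 and IRS2, 5 passed in LIM1215-R1, 1 higher (SH2B2) and 4 lower (PIK3R1, GAB1, SH2B1 and CRKL). In LIM1215-R2 3 passed, all lower (PIK3R1, GAB1 and SH2B1). The shares were 45.5% and 27.3%, where 27.3% and 23.8% of all genes tested passed, so the share in LIM1215-R2 was near that of all genes. PIK3R1, the regulatory subunit p85 alpha of PI3-kinase, had 104, 95.2 and 94.9 CPM in parental libraries, 50.6, 45.9 and 49.998 in LIM1215-R1 and 53.9, 51.8 and 48.3 in LIM1215-R2. The resistant lines overlapped and lay far below parental cells. Its log2 fold changes were -1.003 (SE 0.0619, adjusted p 2.95e-13) and -0.93 (SE 0.0616, adjusted p 1.30e-12).

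Attenuators of the receptor signal moved in both directions. Of 12 tested, 2 rose (PTPRF and PTPN1) and 6 fell in LIM1215-R1, and in LIM1215-R2 1 rose (PTPRF) and 6 fell. Together 66.7% and 58.3% passed, against 27.3% and 23.8% of all genes tested. PTPRF, a receptor tyrosine phosphatase known as LAR that can dephosphorylate INSR, had 88.5, 97.4 and 85.2 CPM in parental libraries, 261, 301 and 275 in LIM1215-R1, and 261, 261 and 263 in LIM1215-R2. The lowest resistant library stood at 260.5 CPM and the highest parental one at 97.4 CPM. Log2 fold changes were 1.63 (SE 0.0556, adjusted p 8.08e-19) and 1.54 (SE 0.0556, adjusted p 2.61e-18), both DEGs. In LIM1215-R2 the value was 1.49 without parental replicate 3 and 1.49 after correction for GC content and length, short of the 1.5 that a DEG needs. The genes that fell in both lines were ENPP1, INPPL1, SOCS2, SOCS6, GRB10 and TRIB3, with log2 fold changes from -1.24 for ENPP1 to -0.19 for TRIB3 in LIM1215-R1.

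The outputs of the pathway, FOXO factors, genes they act on, and GSK3 among them, showed 7 of 13 past the test in LIM1215-R1, 3 higher and 4 lower, and 6 in LIM1215-R2, 4 higher and 2 lower. That was 53.8% and 46.2%, beside 27.3% and 23.8% of all genes tested. PCK1, a gluconeogenic enzyme whose gene insulin represses, had 2.54, 2.60 and 2.42 CPM in parental libraries, 0.245, 0.377 and 0.125 in LIM1215-R1, and 0.119, 0.186 and 0 in LIM1215-R2. Parental cells were above all 6 resistant libraries, with log2 fold changes of -3.30 (SE 0.386, adjusted p 8.69e-08) and -4.50 (SE 0.456, adjusted p 6.50e-09). The value in LIM1215-R2 rests on 5 counts there and was -5.17 without LIM1215-R2 replicate 2. TXNIP, which restrains glucose uptake, rose from 167 ± 4.19 CPM to 188 ± 1.94 in LIM1215-R1 and 239 ± 3.74 in LIM1215-R2. Its log2 fold changes were 0.18 (adjusted p 0.00229) and 0.52 (adjusted p 2.09e-10), with 0.34 (adjusted p 2.78e-06) between the resistant lines, and the call in LIM1215-R1 was lost without parental replicate 3 (adjusted p 0.0204). The other 2 outputs past the test between the resistant lines were SESN3 and PDK4, both higher in LIM1215-R2, at 0.81 (adjusted p 6.04e-07) and 1.16 (adjusted p 6.03e-04) on the log2 scale.

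**Figure D4:**
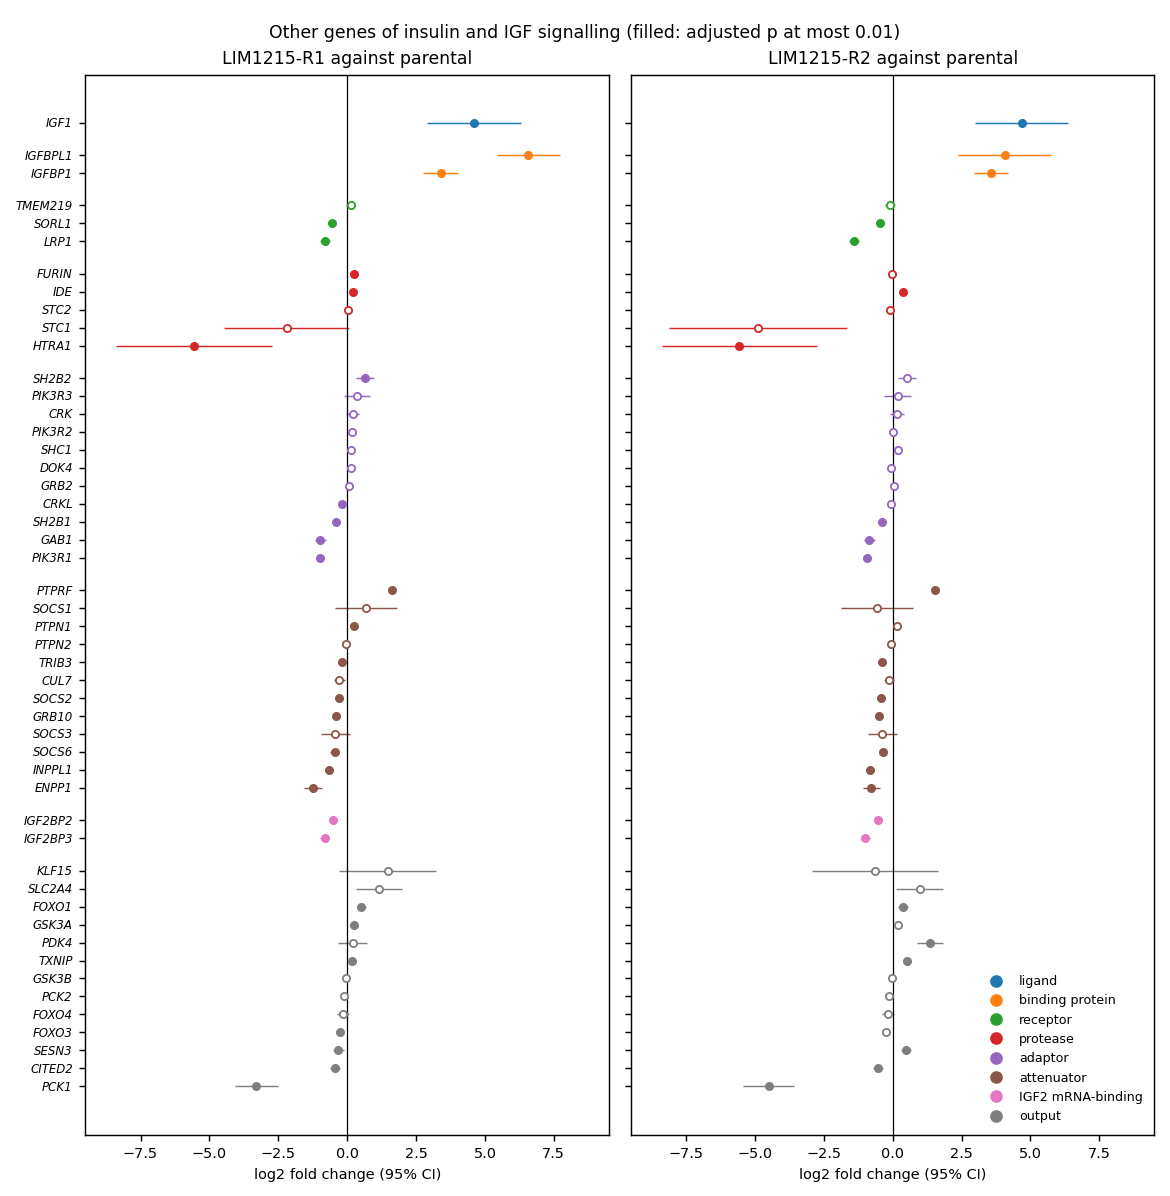
Log2 fold change (x axis) with 95% interval of the 49 other pathway genes that were tested (y axis), grouped by role in colour, in both resistant lines against parental cells, 1 panel each. Filled points passed at 0.01. IGF1, IGFBPL1, IGFBP1 and PTPRF were the DEGs on the higher side and HTRA1 and PCK1 those on the lower side in both panels, and the widest intervals belonged to genes of few counts.

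The genes whose log2 CPM over the 9 libraries was most like that of IGF1R, among 9302 genes of at least 10 CPM, were FAM107B (Pearson r 0.99), ZNF148 (0.9825) and SETD5 (0.9807). FAM107B had a mean of 27.6 CPM in parental cells, 16.1 in LIM1215-R1 libraries and 24.5 in those of LIM1215-R2. In all, 38 genes had r above 0.95 with IGF1R. For IGFBP6, the binding protein with the widest range of group means, they were HKDC1 (0.9898), HOXB6 (0.9825) and TCEAL9 (0.982), and 169 genes had r above 0.95. HOXB6 went from 29.5 to 53.9 and 66.1 CPM. For IRS1 they were PTPRB (0.9797), HEATR5A (0.9378) and TMCC1 (0.9338), a likeness that rests on the 12 counts of IRS1. The points share their library and line, so these values describe the pattern and carry no test.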

How the data were processed

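Poly(A) RNA of the parental line and both resistant populations was sequenced, 3 libraries each, and libraries were grouped by their titles. Per the labels, the authors mapped the reads to hg38 with STAR and counted them per gene with HTSeq 0.9.1 on the reverse strand, and the deposited values are raw counts without normalization. The gene annotation is not given in the sources used here. The tables hold 58920 rows, all named genes.

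The software was R 4.3.3 and edgeR 4.0.16. A gene entered with 10 or more counts summed over the 9 libraries, TMM factors were applied, and one quasi-likelihood fit of the 9 libraries gave 3 contrasts between lines, with Benjamini-Hochberg adjustment over 19102 genes. The SE was derived from the test statistic. Alternatives used other filters, scalings, samples in the fit and thresholds, a replicate term, DESeq2 1.42.0, offsets for GC content and length (available for 86.3% of genes tested) and each library left out. The edgeR step was tested on simulated data with the same spread for all genes. These held only genes with an expected count of at least 10 in a library at the parental level. Genes of fewer counts were not covered.

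The 9 genes, the pathway and marker lists and the tests were chosen with earlier results of these data known. Named beside the 9 genes were INS, IGF1, IGF2, every listed pathway gene that was a DEG, the gene of smallest adjusted p per role, and the 3 genes most like the receptor, adaptor and binding protein with the widest range of log2 CPM (prior count 2). Positions and lengths came from GENCODE 44 and promoter windows from RefSeq. Levels of tested genes rest on total counts of 13737416 to 18725014 per library.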

Additional observations from a re-analysis of the deposited data

Results flagged for a closer look

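The following differences between LIM1215-R2 and LIM1215-R1 were past edgeR's quasi-likelihood test of the difference itself, so the resistant lines departed from parental cells by unequal amounts. IGF1R was higher in LIM1215-R2 by 0.70 on the log2 scale, in 3 of 3 libraries above every LIM1215-R1 library. IGFBP3 differed by -0.36 and LRP1 by -0.58, with all 3 LIM1215-R2 libraries below those of LIM1215-R1. IGFBPL1 differed by -2.51, on 22 against 127 counts. TXNIP differed by 0.34, with all 3 LIM1215-R2 libraries higher. Each of these differences kept its direction and its call in every alternative in which the gene was tested.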

How the results depend on the processing

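Of 12 calls among the 9 genes, 10 held in all alternatives in which the gene was tested. The exceptions were IGFBP2 and IGFBP4 in LIM1215-R2 against parental, each lost only when single libraries were left out. Of 15 comparisons of the 9 genes without a call, 2 gained one under some alternatives, both of IRS2. Of 25 calls of named pathway genes 22 held, the exceptions being HTRA1 in LIM1215-R2 and IDE and TXNIP in LIM1215-R1. HTRA1 in LIM1215-R2 had an adjusted p of 0.0101 by DESeq2, which gave none for it in LIM1215-R1. With total counts only, IDE and TXNIP in LIM1215-R1 had adjusted p-values of 0.0134 and 0.0116. Of 8 comparisons of these genes without a call, 2 gained one, IDE between the resistant lines in 6 of 17 alternatives (adjusted p down to 0.00200) and IGF2BP3 there after correction for GC content and length (adjusted p 0.00799).

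With at least 10 counts required in every library, fewer genes were tested, since IRS1, IGFBP4 and IGFBP6 could not enter, and 1 of the 9 genes was a DEG in LIM1215-R1, 3 passed in LIM1215-R2 and 1 was a DEG there. With single libraries left out, the genes that passed numbered 5 to 6 in LIM1215-R1, 3 to 5 in LIM1215-R2 and 2 to 3 between the resistant lines, and DEGs numbered 2 in LIM1215-R1, 2 to 3 in LIM1215-R2 and 0 between the resistant lines. The count of 3 came without parental replicate 3 and without LIM1215-R2 replicate 1, when IGFBP2 and IGFBP4 were lost. Pathway genes past the test numbered 22 to 30, 24 to 29 and 5 to 8. The share of all genes tested that passed was not counted under the alternatives. Counts of genes under them, here and below, therefore stand without it.

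Signs changed only where no call had been made. For IGF2R in LIM1215-R1 the log2 value was 0.0073 with no filter, 0.0033 with the stricter filter, 0.0043 with DESeq2's size factors, 0.0044 with its test, 0.089 after correction for GC content and length, 0.0019 in the fit of 6 libraries, and -0.025 to 0.020 with libraries left out. For IGF2R in LIM1215-R2 it ran from -0.038 to 0.011 with libraries left out. Between the resistant lines it was 0.0054 with total counts only and -0.031 to 0.016 with libraries left out. IRS1 in LIM1215-R1 ran from -2.64 to 1.88. After correction for GC content and length, IRS2 in LIM1215-R2 was at -0.0056, and between the resistant lines IGF1 was at -0.059 and PIK3R1 at -0.049. IGF1 there ran from -0.28 to 0.32 with libraries left out. The cause was not tested. With a prior count of 0.5, HOXB6 and TCEAL9 ranked 7 and 9 in likeness to IGFBP6.

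Correlations of same-numbered deviations from the line means lay between -0.019 and 0.098, the latter the highest of all pairs. Those of differently numbered libraries lay between -0.106 and 0.065, and not every library correlated best with its own number. Whether libraries of the same number shared a step was not tested. With the replicate number as a block, 6 of the 9 genes passed in LIM1215-R1, 5 in LIM1215-R2 and 3 between the resistant lines, the added calls being IRS2 (adjusted p 0.00727 and 0.00282). Depth limits IRS1, IGFBP4, IGFBP6 and IGF1, for which 1 library holds at most 32 counts. Other scalings moved the median of all genes by less than 0.1 on the log2 scale.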

Other observations

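The nearest tested genes on each side of IGFBP3, IGFBP4 and IGFBP6 were read after the values of these genes were known. TNS4, 18103 bases from IGFBP4 on chromosome 17, went from a mean of 487 CPM in LIM1215-parental to 1313 in LIM1215-R1 and 1464 in LIM1215-R2. Its log2 fold changes were 1.43 (adjusted p 8.04e-18) and 1.59 (adjusted p 9.37e-19) in edgeR's quasi-likelihood test, while IGFBP4 was at 42, 19 and 7 counts in these lines. TOP2A, 25554 bases away on the other side of IGFBP4, had log2 fold changes of 0.30 (adjusted p 4.00e-05) and 0.22 (adjusted p 0.00134).

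SPRYD3, 18032 bases from IGFBP6 on chromosome 12, was higher in both resistant lines, at 0.38 (adjusted p 3.74e-05) and 0.37 (adjusted p 4.96e-05). HIGD1AP1 on the other side, 39708 bases away, had 0.10 (adjusted p 0.832) and 0.40 (adjusted p 0.307). IGFBP3 has IGFBP1 on one side, and the nearest tested gene on the other, TNS3, lies 1353280 bases away. TNS3 was lower in both resistant lines, at -0.44 (adjusted p 1.86e-08) and -0.56 (adjusted p 2.28e-10).

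At the IGF2 locus, where IGF2 and INS had 0 counts, the imprinted RNA H19 was read in all libraries. H19 had 518, 427 and 615 counts in LIM1215-parental, 465, 453 and 475 in LIM1215-R1, and 812, 805 and 859 in LIM1215-R2. Its log2 fold change was -0.11 (SE 0.0744, adjusted p 0.260) in LIM1215-R1 and 0.72 (SE 0.0705, adjusted p 3.72e-09) in LIM1215-R2, and the resistant lines differed by 0.83 (SE 0.0713, adjusted p 2.39e-09).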
